A study of Mus musculus with 4 samples.

Results

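The 10 genes Hmox1, Blvra, Blvrb, Fth1, Ftl1, Slc40a1, Tfrc, Slc11a1, Slc11a2 and Lcn2, which break down heme or move, store and withhold iron, were examined in DC2.4, an immortalised mouse dendritic cell line. They were chosen by gene name from the deposited count table, and all 10 were found among its 54532 gene rows. All 10 had enough counts to be tested, as did 13518 genes in all. RNA was collected after 24 h with ginsenoside Rb1 at 10 uM (2 libraries) or after 24 h with vehicle (2 libraries), and its libraries were sequenced from both ends (Illumina). Rb1 is a triterpene saponin of ginseng, not the retinoblastoma gene. Every library came from the same cell line, and cells were grown in RPMI-1640 with serum and antibiotics. The labels call the libraries biological replicates without saying how the cultures were separated, so the p-values below measure the spread between these libraries.

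Heme is opened by heme oxygenase into biliverdin, carbon monoxide and iron, and biliverdin reductases then make bilirubin. Iron enters most cells bound to transferrin through the transferrin receptor, is held inside ferritin shells and leaves through ferroportin. In myeloid cells this traffic also bears on infection, because iron is withheld from bacteria by the phagosome pump NRAMP1 and by lipocalin 2. Iron regulatory proteins bind stem-loops in the RNA of several of these genes, called iron-responsive elements. When cell iron is low they block translation of ferritin and ferroportin mRNA from elements in the 5′ UTR, and they stabilise transferrin receptor mRNA through elements in the 3′ UTR.

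These elements are shown because they are the sites through which iron regulatory proteins are known to act on ferritin, ferroportin and transferrin receptor mRNA. The search asked for an unpaired C, 5 bases, the 6-base loop CAGTGN and 5 bases that pair with the first 5 (G with T allowed), on the transcript strand of GENCODE M21 (GRCm38). It found 7 elements in the UTRs of 4 of the 10 genes, while 0.731% of 21901 protein-coding genes had a match in a UTR. The pattern follows elements already known in these 4 genes, so their matches were foreseen and the shares are no test of enrichment. Each element is given 5′ to 3′ with the loop in capitals.
Fth1, 5′ UTR, plus strand, chr19:9982732-9982760: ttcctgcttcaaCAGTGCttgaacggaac
Ftl1, 5′ UTR, minus strand, chr7:45459779-45459807: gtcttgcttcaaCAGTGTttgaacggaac
Slc40a1, 5′ UTR, minus strand, chr1:45925465-45925493: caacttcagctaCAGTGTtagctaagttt
Tfrc, 3′ UTR, plus strand, chr16:32631219-32631247: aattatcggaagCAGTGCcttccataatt
Tfrc, 3′ UTR, plus strand, chr16:32631598-32631626: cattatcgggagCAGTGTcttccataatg
Tfrc, 3′ UTR, plus strand, chr16:32631663-32631691: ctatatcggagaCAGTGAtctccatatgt
Tfrc, 3′ UTR, plus strand, chr16:32631710-32631738: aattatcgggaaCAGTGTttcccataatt

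The 2 ferritin elements were identical at 26 of 29 bases. Between the Fth1 element and the 4 Tfrc elements, 9 to 11 of 29 bases were identical. No UTR of Hmox1, Blvra, Blvrb, Slc11a1, Slc11a2 or Lcn2 held this exact arrangement, which says only that these letters were not found there and not that the genes lack an element of another form. A match is a description of sequence, and RNA counts do not measure binding or translation.

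Total counts lay between 17829784 and 18641021 per library. Of 12 dendritic and myeloid markers, 9 could be tested, 2 higher and 7 lower with Rb1, with a summed level of 1093 to 1115 CPM (TMM-scaled counts) with Rb1 and 1804 to 1824 CPM with vehicle. Flt3, Batf3 and the class II gene H2-Ab1, markers of dendritic cells, had too few counts to be tested, and Itgax (CD11c) had 3.55 and 3.1 CPM with Rb1 and 27.6 and 30.3 CPM with vehicle. The 2 higher ones were Zbtb46, a transcription factor of the dendritic lineage, with 6.35 and 5.62 CPM with Rb1 and 2.21 and 1.84 CPM with vehicle, and the pan-leukocyte gene Ptprc (CD45), with 237 and 241 CPM with Rb1 and 107 and 113 CPM with vehicle. Of 8 macrophage markers 4 could be tested and all 4 were lower, with sums of 928 to 931 CPM with Rb1 and 1471 to 1476 CPM with vehicle, and Timd4 and Vsig4 had 0 counts in every library. Of 6 erythroid markers, Hbb-bs and Slc4a1 had 0 counts in every library, Klf1 and Epor were lower, and the 6 summed to 0.206 to 0.55 CPM with Rb1 and 2.68 to 3.89 CPM with vehicle. Of 7 lymphoid, epithelial and fibroblast markers none could be tested. Beside these counts, 72.0% of all genes tested were called by the test described below, 35.7% higher and 36.3% lower. The part of these markers in the results below was not tested. In bulk RNA, fewer cells of a kind and less RNA per cell cannot be told apart. Gene models over 5 kb held 40.5% and 40.1% of counts with Rb1 and 27.9% and 30.4% with vehicle, so each gene below is also given with the length trend of each library removed where that changes its call or direction.

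Setting Rb1 against vehicle shows which of these transcripts differ in cells given the compound. Hmox1 and Lcn2 were 7.26-fold and 8.89-fold lower with Rb1, and Tfrc was 2.86-fold higher. Blvra, Fth1 and Slc11a1 were lower by smaller amounts, Slc40a1 passed narrowly as higher, and Blvrb, Ftl1 and Slc11a2 did not pass. Genes are called at an adjusted p under 0.05 in edgeR's quasi-likelihood test, with adjustment over all 13518 genes. At that threshold 2 of the 10 genes were higher and 5 lower, 7 in all, while 72.0% of all genes tested were called, 35.7% higher and 36.3% lower. With library totals in place of TMM as the scale, 62.6% of all calls were higher, against 49.6% with TMM, and the median of all genes moved to 0.23. The count of called genes is therefore near the background and sets the group apart in no way. At 2-fold or more, 1 was higher and 2 were lower, while 30.5% of all genes were called with that size. In 9 of the 10 genes the groups did not overlap, against 86.3% of all genes. The median log2 fold change of the 10 was -0.38, and that of all genes was -0.01.

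**Figure D1:**
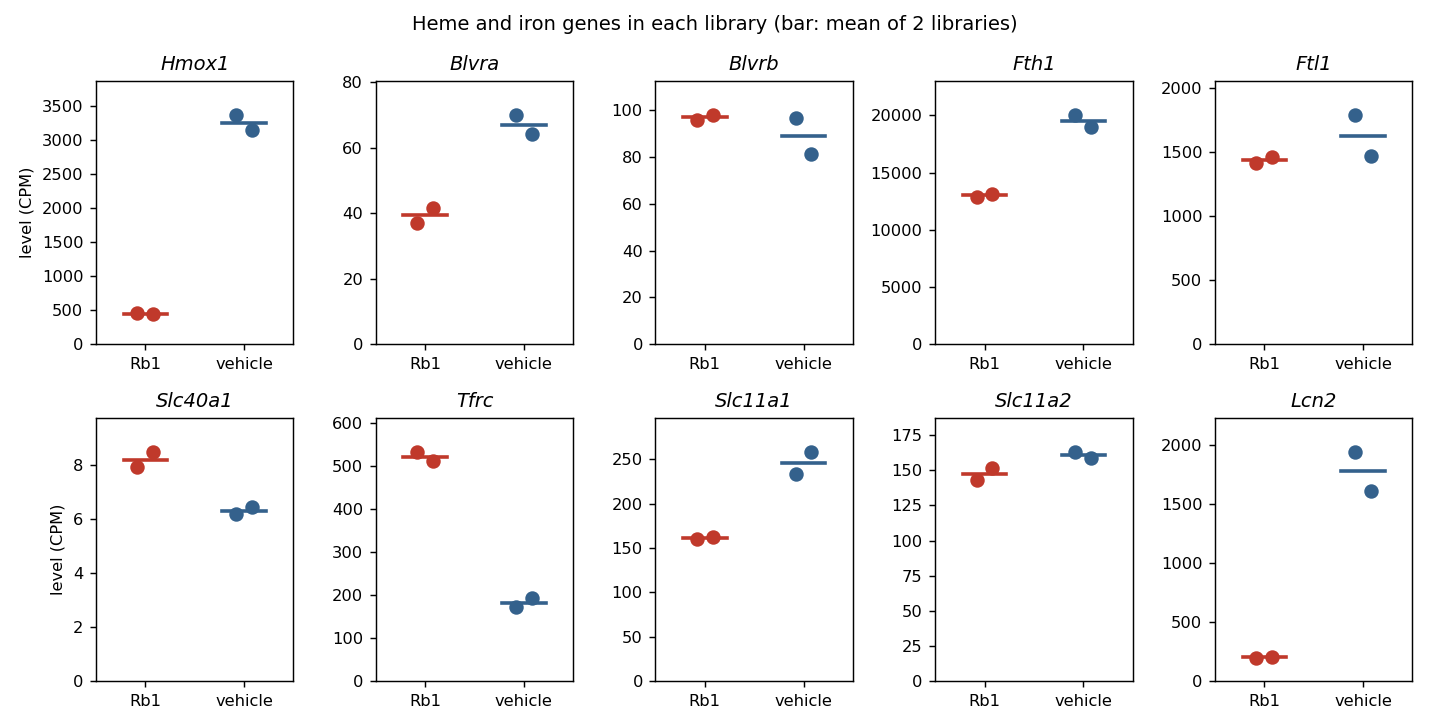
Level of each gene in each library, in TMM-scaled CPM, with Rb1 libraries in red and vehicle libraries in blue; points are libraries and bars are means of 2. Both Rb1 libraries lie far below both vehicle libraries for Hmox1 (453 and 445 CPM with Rb1) and Lcn2 (196 and 205 CPM with Rb1), and above them for Tfrc (532 and 511 CPM with Rb1).

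Heme breakdown starts with Hmox1 (ENSMUSG00000005413, chromosome 8, 75093621 to 75100589, GRCm38), the inducible heme oxygenase. It had 453 and 445 CPM in the Rb1 libraries and 3365 and 3153 CPM in the vehicle libraries. Both Rb1 libraries lay far below both vehicle libraries, and the replicates of each group were close. The log2 fold change was -2.86 (SE 0.09, edgeR adjusted p = 4.1e-10), and of the 13518 genes tested 549 had a lower one. Within replicate 1 it was -2.89 and within replicate 2 it was -2.83. With library totals as the scale it was -2.61, and with the length trend removed -2.43. Per gene length, Hmox1 stood at rank 144 and 154 of all gene rows in the Rb1 libraries and at rank 17 and 14 in the vehicle libraries. Its constitutive relative Hmox2, which also opens heme, averaged 32.3 ± 1.70 CPM with Rb1 and 47.4 ± 0.717 CPM with vehicle (SD, n = 2 each; log2 fold change -0.55, SE 0.09, edgeR adjusted p = 1.4e-04). In FPKM, Hmox1 stood 18.4 and 16.8 times above Hmox2 with Rb1 and 88.9 and 85.1 times above it with vehicle.

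Both biliverdin reductases were expressed, at FPKM levels far below that of Hmox1. Blvra (ENSMUSG00000001999, chromosome 2, 127070665 to 127097084), which makes bilirubin from the biliverdin that heme oxygenase yields, had 37.1 and 41.7 CPM with Rb1 and 69.9 and 64.3 CPM with vehicle. The groups did not overlap. Its log2 fold change was -0.77 (SE 0.09, edgeR adjusted p = 1.4e-05), with -0.91 within replicate 1 and -0.62 within replicate 2. Blvrb (ENSMUSG00000040466, chromosome 7, 27447978 to 27466144), a flavin reductase that also reduces biliverdin, had 95.9 and 97.7 CPM with Rb1 and 96.5 and 81.0 CPM with vehicle. One vehicle library lay between the Rb1 libraries and the other below them. It did not pass (log2 fold change 0.13, SE 0.09, edgeR adjusted p = 0.235). It was called higher with library totals (0.37, edgeR adjusted p = 0.00176) and with the length trend removed (0.32, adjusted p = 0.00134). Its log2 fold change was 0.25 without vehicle replicate 1 and 0.01 without vehicle replicate 2. The first of these passed (edgeR adjusted p = 9.2e-05), but with 1 vehicle library left the spread comes from the Rb1 pair alone, and the lone library is assumed to vary like it. In FPKM the ratio of Blvra to Blvrb was 0.440 and 0.486 with Rb1 and 0.824 and 0.903 with vehicle, so the pair stood nearer to each other in vehicle libraries.

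Fth1 transcripts were the most abundant of these genes, while Ftl1 stood at rank 2 among them in FPKM with Rb1 and at rank 3, below Hmox1, with vehicle. Fth1 (ENSMUSG00000024661, chromosome 19, 9982703 to 9985092), the heavy chain that oxidises iron as it enters the shell, held 256917 and 254982 counts with Rb1 and 334004 and 319068 counts with vehicle, and ranked 1 in FPKM of all gene rows in all 4 libraries. Its level was 12838 and 13154 CPM with Rb1 and 19992 and 18979 CPM with vehicle. The groups did not overlap. The log2 fold change was -0.58 (SE 0.10, edgeR adjusted p = 1.8e-04). This call was lost with the length trend removed (-0.01, adjusted p = 0.89): the gene model has 866 bases, and models under 1 kb held 4.53% and 4.63% of counts with Rb1 and 7.21% and 6.46% with vehicle. What part of the Fth1 difference goes with its length was not tested.

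Ftl1 (ENSMUSG00000050708, chromosome 7, 45457944 to 45459884), the light chain that helps iron crystallise inside the shell, had 1418 and 1464 CPM with Rb1 and 1787 and 1472 CPM with vehicle. One vehicle library lay well above the Rb1 libraries and the other only just above them. The difference did not pass (log2 fold change -0.18, SE 0.10, edgeR adjusted p = 0.132). It turned to 0.34 and passed with the length trend removed (adjusted p = 2.4e-04), and was 0.07 with library totals. It was -0.04 without vehicle replicate 1 and -0.31 without vehicle replicate 2, and the second passed (edgeR adjusted p = 5.5e-13) with its spread again from the Rb1 pair alone. The FPKM of Fth1 was 14.0 and 13.9 times that of Ftl1 with Rb1, and 17.3 and 20 times with vehicle. Ferritin genes have near-identical copies that can share reads. Of 15 other ferritin rows in the table, 11 had 0 counts and 3 had under 10 counts in all, and Ftl1-ps1 had 576 and 488 counts with Rb1 and 599 and 449 with vehicle. How the counting treated reads shared between copies is not known here, so both chains carry that uncertainty.

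Tfrc (ENSMUSG00000022797, chromosome 16, 32608920 to 32632794), the transferrin receptor that imports iron and the gene with 4 of the elements printed above, had 532 and 511 CPM with Rb1 and 171 and 193 CPM with vehicle. Both Rb1 libraries lay well above both vehicle libraries. The log2 fold change was 1.52 (SE 0.08, edgeR adjusted p = 2.3e-08), with 1.63 within replicate 1 and 1.41 within replicate 2, and 851 of the 13518 genes had a higher one. With library totals it was 1.76 and with the length trend removed 1.23, and it was called in both. Per gene length Tfrc stood at rank 532 and 568 with Rb1 and at rank 2317 and 2024 with vehicle.

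The exporter was scarce. Slc40a1 (ENSMUSG00000025993, chromosome 1, 45908068 to 45926523), which encodes ferroportin, had 158 and 164 counts with Rb1 and 103 and 108 counts with vehicle, or 7.89 and 8.46 CPM and 6.17 and 6.42 CPM. The groups did not overlap, and its log2 fold change of 0.38 (SE 0.16) passed with an edgeR adjusted p of 0.0496. That call held in 2 of 17 alternatives, library totals and leaving out vehicle replicate 2 (edgeR adjusted p = 0.0458, with the spread from the Rb1 pair alone). It was lost with the replicate number as a block (adjusted p = 0.0639) and without any of the other 3 libraries (0.0974 to 0.236), and the direction turned to -0.14 with the length trend removed. The FPKM of Tfrc was 98 and 87.8 times that of Slc40a1 with Rb1 and 40.5 and 43.6 times with vehicle.

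Slc11a1 and Slc11a2 encode related proton-coupled metal transporters, NRAMP1 of the phagosome and DMT1 of the endosome. Slc11a1 (ENSMUSG00000026177, chromosome 1, 74375195 to 74386062) had 160.1 and 162 CPM with Rb1 and 233 and 258 CPM with vehicle, without overlap. Its log2 fold change was -0.61 (SE 0.07, edgeR adjusted p = 1.7e-05), -0.36 with library totals and -0.56 with the length trend removed, called in both. Slc11a2 (ENSMUSG00000023030, chromosome 15, 100387898 to 100425072), which moves the iron that Tfrc brings in out of the endosome, had 143 and 152 CPM with Rb1 and 163 and 159 CPM with vehicle. The groups lay close without overlapping, and the difference did not pass (log2 fold change -0.13, SE 0.07, edgeR adjusted p = 0.123). It passed as lower with the length trend removed (-0.44, adjusted p = 1.9e-05), while with library totals it was 0.12 and did not pass. Leaving out either vehicle library hardly moved the log2 fold change (-0.12 and -0.15) and gave a call (edgeR adjusted p = 0.025 and 0.00671), with the spread then taken from the Rb1 pair alone.

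Lcn2 (ENSMUSG00000026822, chromosome 2, 32384633 to 32388252) encodes lipocalin 2, a secreted protein that captures bacterial siderophores and the iron they carry. It had 196 and 205 CPM with Rb1 and 1944 and 1617 CPM with vehicle. The vehicle libraries differed from each other more than the Rb1 libraries did, yet both lay far above them. The log2 fold change was -3.15 (SE 0.11, edgeR adjusted p = 6.7e-10), the lowest of the 10 genes, with 469 of 13518 genes lower. It was -3.31 within replicate 1, -2.98 within replicate 2, -2.90 with library totals and -2.93 with the length trend removed. Slc22a17, named as a receptor for lipocalin 2, had 5 and 3 counts with Rb1 and 2 and 0 with vehicle, too few to be tested; it was named after its counts were seen.

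**Figure D2:**
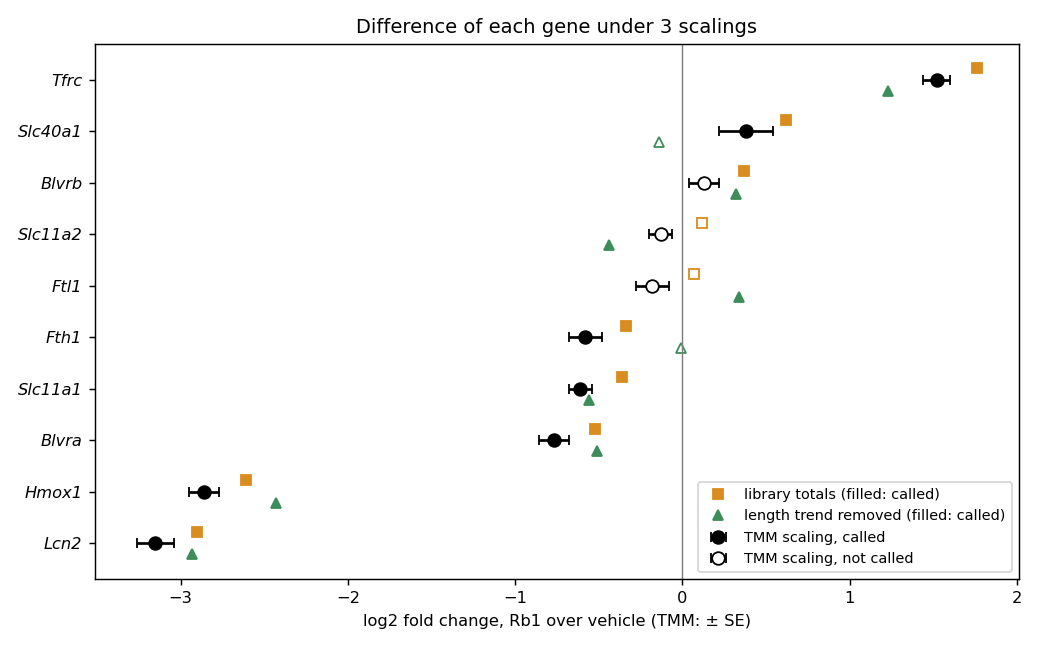
Log2 fold change of Rb1 over vehicle for each gene under TMM scaling (circles, with standard error), library totals (squares) and with the length trend of each library removed (triangles); filled symbols passed an adjusted p of 0.05. Lcn2, Hmox1 and Tfrc stay far from 0 under all 3 scalings, while Fth1, Ftl1, Slc40a1 and Slc11a2 cross or reach 0 under at least 1 of them.

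Set against each other per gene length, the 10 genes kept Fth1 first and Slc40a1 last in both groups, and the order between them differed. With Rb1 the FPKM ran from Fth1 (mean 14990.3) through Ftl1 (1074), Hmox1 (256), Tfrc (84.2), Lcn2 (76.3), Slc11a1 (43.4), Blvrb (34.8), Slc11a2 (23.2) and Blvra (16.1) to Slc40a1 (0.908). No neighbours in that order overlapped over the 2 libraries. With vehicle Hmox1 (1844) came above Ftl1 (1205), Lcn2 (673) came above Slc11a1 (65.7), and Tfrc (29.2) lay between Blvrb (31.6) and Blvra (27.2), overlapping both in its range over libraries. Slc11a2 (25.1) and Slc40a1 (0.693) followed, and Fth1 averaged 22299. Hmox1 stood 3.01 and 3.08 times above Tfrc with Rb1, and 69.3 and 57.8 times above it with vehicle. These are levels on the authors' FPKM scale and carry the length trend given above.

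**Figure D3:**
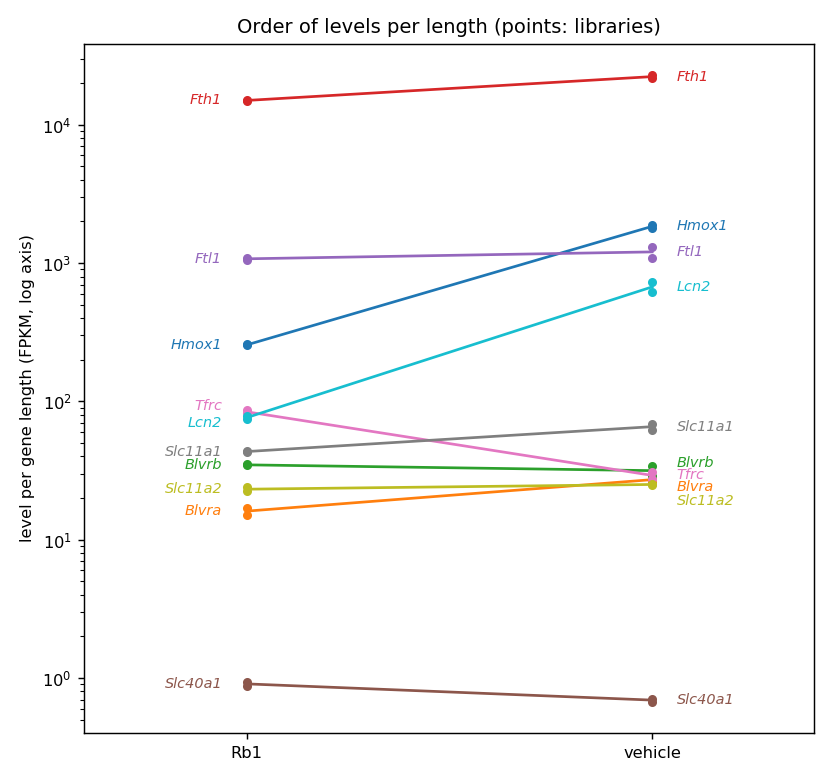
Level per gene length of each gene (FPKM, log axis) in Rb1 libraries on the left and vehicle libraries on the right; points are libraries and lines join the group means. Tfrc lies above Lcn2 with Rb1 (84.2 and 76.3 FPKM) and far below it with vehicle (29.2 and 673 FPKM), and Hmox1 lies below Ftl1 with Rb1 and above it with vehicle.

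A further 80 genes of heme and iron biology, in 8 lists by function, show the surroundings of the 10. Of these 65 could be tested, 24 were higher, 29 lower and 12 not called, with a median log2 fold change of -0.12, while 72.0% of all genes tested were called. With library totals 28 were higher and 20 lower. Of the 80, Alas2 and Bola3 had a UTR match to the element searched above.

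Heme synthesis did not move one way: 5 of 9 genes were higher and 4 lower, or 5 and 2 with library totals. With DESeq2, or without either Rb1 library, 2 were called higher. Cpox, coproporphyrinogen oxidase, averaged 134 ± 9.33 CPM with Rb1 and 42.8 ± 1.58 CPM with vehicle (SD, n = 2 each; log2 fold change 1.64, edgeR adjusted p = 1.7e-08). Alas1, the first and limiting enzyme of the pathway outside red cells, averaged 80.0 ± 4.08 CPM with Rb1 and 158 ± 0.692 CPM with vehicle (log2 fold change -0.98, edgeR adjusted p = 3.5e-07). Uros was lower too, at 9.13 ± 0.799 CPM with Rb1 and 16.0 ± 2.55 CPM with vehicle.

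Among genes of heme and porphyrin transport, in which Hmox2 was counted, 5 of 9 tested were lower, 2 higher and 2 not called, or 4 and 2 with library totals. Slc48a1, which carries heme out of the phagolysosome, averaged 252 ± 0.777 CPM with Rb1 and 511 ± 0.368 CPM with vehicle (log2 fold change -1.02, edgeR adjusted p = 1.9e-07). Pgrmc2, an intracellular heme chaperone, was lower by 0.87 on the log2 scale, and the heme and folate carrier Slc46a1 was lower at 2.25 and 2.58 CPM with Rb1 and 6.11 and 7.91 CPM with vehicle. Both genes of the hemoglobin and hemopexin uptake list that could be tested fell. Hp, which encodes the hemoglobin-binding plasma protein haptoglobin, had 71.8 and 76.8 CPM with Rb1 and 748 and 632 CPM with vehicle (log2 fold change -3.22, SE 0.10, edgeR adjusted p = 3.4e-10). Lrp1, the hemopexin receptor, averaged 87.4 ± 1.55 CPM with Rb1 and 156 ± 11.5 CPM with vehicle. Cd163, the receptor for haptoglobin-bound hemoglobin, had 4 and 1 counts with Rb1 and 0 in both vehicle libraries and was not tested; it was named after its counts were seen.

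Of 6 tested genes of iron sensing and ferritin turnover, 4 were higher, 1 lower and 1 not called, with library totals 5 were higher and 0 lower, and with the length trend removed 3 were higher and 2 lower. Pcbp2, a chaperone that hands iron to ferritin, averaged 268 ± 0.509 CPM with Rb1 and 139.6 ± 12.8 CPM with vehicle (log2 fold change 0.94, edgeR adjusted p = 7.5e-07). Its relative Pcbp1, named after its values were seen, was the gene not called with TMM scaling. It averaged 309 ± 8.15 CPM with Rb1 and 319 ± 26.5 CPM with vehicle (log2 fold change -0.05, edgeR adjusted p = 0.614). Pcbp1 was among the genes called higher with library totals and with the length trend removed, so its call depends on the scale. The genes of both iron regulatory proteins were higher: Aco1 (IRP1) had 92.1 and 95.0 CPM with Rb1 and 70.2 and 75.5 CPM with vehicle, and Ireb2 (IRP2) had 96.6 and 94.5 CPM with Rb1 and 59.1 and 69.1 CPM with vehicle. The call of Ireb2, a model of 9479 bases, was lost with the length trend removed (0.03, adjusted p = 0.706). Fbxl5, which marks IRP2 for breakdown, had a log2 fold change of 0.25, or -0.31 with the length trend removed. Its call was also lost on log2 FPKM values and without either Rb1 library (edgeR adjusted p = 0.163 and 0.0787).

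Other iron transporters, reductases and oxidases were split, 3 of 7 tested higher, 3 lower and 1 not called. Cp, the ferroxidase ceruloplasmin that works with ferroportin, averaged 131 ± 2.09 CPM with Rb1 and 41.0 ± 6.44 CPM with vehicle (log2 fold change 1.68, SE 0.10, edgeR adjusted p = 6.0e-08). The endosomal ferrireductase gene Steap3 was higher, at 8.78 ± 0.161 CPM with Rb1 and 2.74 ± 0.663 CPM with vehicle, and its relative Steap1 was lower, at 8.71 ± 0.017 CPM and 26.0 ± 4.33 CPM. Tfr2, the second transferrin receptor, had 14 and 17 counts with Rb1 and 56 and 70 with vehicle and was called lower. In the hepcidin axis, 3 of 8 genes could be tested and all 3 were lower. Hamp, the gene of the hormone hepcidin that closes ferroportin, had 0 counts in both Rb1 libraries and 54 and 41 counts with vehicle, at least 18.6-fold lower against a floor of 3 counts per library. Hfe had a log2 fold change of -0.42, and its call was lost with library totals (-0.18, edgeR adjusted p = 0.218), with DESeq2 (adjusted p = 0.0652) and without Rb1 replicate 1 (-0.33, edgeR adjusted p = 0.119), while Bmp6 had 5 and 1 counts with Rb1 and 15 and 18 with vehicle.

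Genes of mitochondrial iron and iron-sulfur cluster assembly were lower in 9 of 15 tested cases and higher in 3. With library totals 6 were lower and 4 higher, and with the length trend removed 7 were lower and 4 higher. Of all genes tested, 36.3% were called lower and 35.7% higher, 72.0% in all. Isca1, a cluster assembly gene, averaged 33.9 ± 1.09 CPM with Rb1 and 75.5 ± 1.94 CPM with vehicle, and Iba57 averaged 6.18 ± 1.37 CPM with Rb1 and 20.7 ± 0.161 CPM with vehicle. Hscb, a co-chaperone of the same assembly line, was lower by 0.77 on the log2 scale, and its call was lost with the length trend removed (-0.20, adjusted p = 0.0673).

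Of 14 regulators of heme and iron genes, 7 were higher, 2 lower and 5 not called, or 9 and 2 with library totals. Maff, a small MAF partner of NRF2 and BACH1, had 19.9 and 21.5 CPM with Rb1 and 103 and 98.6 CPM with vehicle (log2 fold change -2.28, SE 0.09, edgeR adjusted p = 1.8e-09). Nfkb1, Arnt and Zfp36 were higher, by 1.09, 0.90 and 0.89 on the log2 scale. Keap1 was higher (log2 fold change 0.63), Mafk was lower (-0.51), and Mafg and Spic were not called. These and the regulators best known for Hmox1 and Tfrc, given next, were picked out after their values were seen. Their part in the levels of Hmox1 and Tfrc was not tested. Nfe2l2, the gene of the Hmox1 activator NRF2, averaged 112 ± 0.302 CPM with Rb1 and 118 ± 2.81 CPM with vehicle and did not pass (log2 fold change -0.07, SE 0.07, edgeR adjusted p = 0.409). Bach1, a heme-sensing repressor of Hmox1, had 41.1 and 40.8 CPM with Rb1 and 20.2 and 24.2 CPM with vehicle, with non-overlapping groups (log2 fold change 0.88, SE 0.11, edgeR adjusted p = 1.5e-05). Hif1a had 323 and 304 CPM with Rb1 and 179 and 189 CPM with vehicle (log2 fold change 0.77, edgeR adjusted p = 2.2e-06), and Epas1, which encodes HIF-2 alpha, averaged 7.67 ± 0.0424 CPM with Rb1 and 1.64 ± 0.457 CPM with vehicle.

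**Figure D4:**
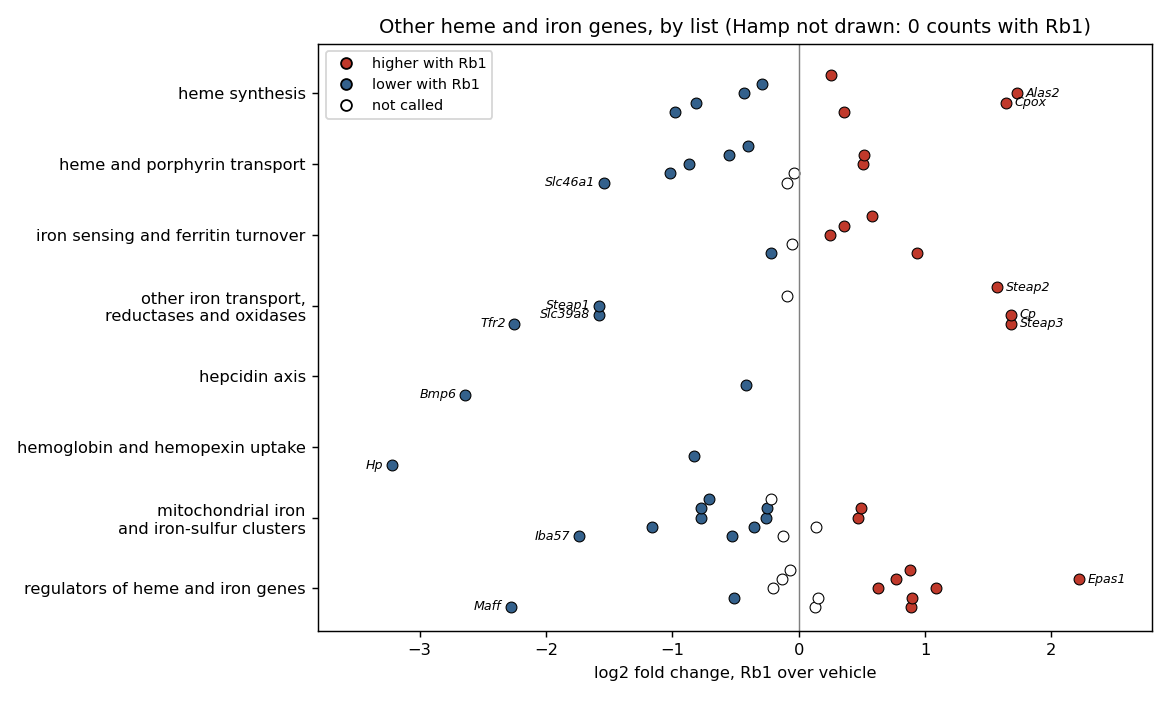
Log2 fold change of Rb1 over vehicle for tested genes of the 8 further lists; red points were called higher with Rb1, blue points lower and white points not called, and genes beyond 1.5 on either side are named. Hp (-3.22) and Maff (-2.28) lie far to the left, and Epas1 (2.22) far to the right; Hamp, with 0 counts in both Rb1 libraries, and 2 genes not reported here are not drawn.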

How the data were processed

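The authors deposited raw counts per gene, and these were used as deposited. The authors also deposited FPKM values, used here for levels between genes. For the aligner, the counter, strand use and library kit, no entry is given in the sources used. GRCm39 and mm39 are named, per the submitters' processing notes, yet 98.3% of the 54495 gene IDs found in GENCODE M21 have its GRCm38 coordinates, so table coordinates are named GRCm38; Fth1 alone of the 10 genes differs from M21 in its ends. Iron-responsive elements were read from M21 transcripts.

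Counts were tested with edgeR 4.0.16 in R 4.3.3 (quasi-likelihood, robust, TMM, filterByExpr, group only, 2 residual degrees of freedom, two-sided, Benjamini-Hochberg over 13518 genes). SE is the log2 fold change over the square root of F, and CPM are TMM-scaled. The procedure was tested on simulated data. Per library, 3 counts, the limit that 0 allows, are 0.15 to 0.18 CPM (counting error only). Replicates differed beyond sampling noise (chi-square per degree of freedom 2.87 for Rb1 and 11.8 for vehicle). Replicate numbers stand under a batch tag in the labels. They paired libraries only in the replicate block and the within-replicate values, and the main test did not pair. Same-numbered deviations correlated at -0.05 across genes, which gives no sign that the numbers mark true pairs. Alternatives used DESeq2 1.42.0, limma 3.58.1 on voom weights or log2(FPKM + 1 or 0.1), other scalings and filters, the replicate block, a lowess length trend removed per library and each library left out. The 10 genes and the lists were chosen with earlier results of these data known. All 10 are described, with up to 4 called genes of smallest p per list, or the 2 most abundant where none was called; some of these are not reported here. Others are named where their counts were too low to test or where said. Overlapping models on Ftl1 and Slc11a2 held at most 10 counts per library.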

Additional observations from a re-analysis of the deposited data

How the results depend on the processing

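Over 17 alternatives, Hmox1, Lcn2 and Tfrc kept their direction and their call, with log2 fold changes of -2.90 to -2.43, -3.28 to -2.90 and 1.23 to 1.76. With a test against a 2-fold limit, 1146 genes in all were called higher and 1458 lower, of the 10 genes 1 and 2, and of the 80 further genes 5 and 8. Of the 10 genes, 1 in place of 2 was called higher with relative log expression factors, with no count filter, with at least 1 CPM in 2 libraries, with DESeq2, limma-voom or any of the 3 FPKM forms and with the replicate block, and 1 to 2 with a library left out. The gene lost was Slc40a1, at an adjusted p of 0.0526 with relative log expression factors, 0.0621 with no count filter, 0.0522 with the CPM minimum, 0.0562 with limma-voom and 0.258 with DESeq2; the cause was not tested. The replicate block ended its call (adjusted p = 0.0639) and that of Ncoa4, so that 0 genes of iron sensing were lower, and no other call among the 10 genes or those chosen from the further lists by p. Removing the length trend, alone or with the block, turned Ftl1 to 0.34, Slc40a1 to -0.14 and Fbxl5 to -0.31. With a library left out, the spread comes from the pair of the other group, so calls gained by Ftl1, Blvrb and Slc11a2 without a vehicle library rest on the Rb1 pair. Hamp, Bmp6, Tfr2 and Alas2 rest on few counts.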

Other observations

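The profile of Hmox1 over the 4 libraries (log2 CPM with a prior count of 2, centred per gene) was compared with that of every other tested gene that has a name. The 3 nearest by root mean square difference were Ms4a6d (0.0299), Tspan18 (0.0421) and Slfn2 (0.0524). Ms4a6d, a membrane protein gene of myeloid cells, had 6 and 6.14 CPM with Rb1 and 44.5 and 42.7 CPM with vehicle. Slfn2, of the interferon-responsive Schlafen family, had 57.3 and 58 CPM with Rb1 and 398 and 394 CPM with vehicle. Tspan18 had 0 counts in both Rb1 libraries and 11 in each vehicle library, so its place depends on the prior count. With 2 groups of 2 libraries, such likeness is little more than a like fold change.

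Alas2, the red cell form of the first heme synthesis enzyme, was named after its values were seen. It was counted in these cells at 14 and 10 counts with Rb1 and 3 and 3 with vehicle (edgeR adjusted p = 0.0253), and its 5′ UTR holds a match to the iron-responsive element pattern.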
